A study of Yarrowia lipolytica with 11 samples.

Results

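In the oleaginous yeast Yarrowia lipolytica, 132 of 7135 counted genes were raised by hexanoic acid in the wild type and stood already raised in an untreated mutant. Their mean levels in the 2 strains were within 2-fold of each other once the acid was present. The members were chosen from measured values. On the group means of the deposited normalized counts, with 1 added to each, a member had a ratio of treated to untreated wild type of at least 5, a ratio of untreated mutant to untreated wild type of at least 5, a ratio of treated mutant to treated wild type over 0.5 and under 2, and a treated wild-type value of at least 50. In all, 136 genes met these conditions, and 4 of them are among 6 tags that the definition leaves out. The 3 ratios are given as description with no test, and so is any contrast of the strains' acid responses, which they fix.

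RNA sequencing compared 11 libraries from cultures of 2 strains in 2 conditions. The groups were the mutant with 1 g/L hexanoic acid (3 libraries), the untreated mutant (2 libraries), wild-type cells at the same dose (3 libraries) and the untreated wild type (3 libraries). Per the labels, the mutant lacks pex10 (delta pex10) and harbours a plasmid that overexpresses DGA1, while the other strain is given as wt, and all cultures grew in YPC medium to exponential phase. Deletion and plasmid come together in 1 strain, so their parts cannot be told apart, and in a bulk culture more RNA per cell cannot be told apart from more cells that express a gene.

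Hexanoic acid is a medium-chain fatty acid, which this yeast can take up and oxidise and which is toxic to cells at high levels. PEX10 encodes a ring-finger protein of the peroxisome membrane that is needed to import enzymes into the peroxisome, the organelle in which yeasts carry out beta-oxidation of fatty acids. DGA1 encodes a diacylglycerol acyltransferase, which makes triacylglycerol, the storage lipid of lipid bodies. The tables identify nuclear genes by locus tag, and 0 of 7135 identifiers matched the RefSeq gene table used here. The members therefore carry no names or roles below, and lists of genes by function were not built.

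Library totals ran from 9988288 to 17519857 counts. Under the tags published for the altered genes, which no table used here pairs with the names, PEX10 (YALI0_C01023g) had 70.7 to 108.0 normalized counts in the treated mutant, 66.5 and 100.2 in the untreated mutant, 144.3 to 249.7 in the treated wild type and 164.0 to 277.4 in the untreated wild type. DGA1 (YALI0_E32769g) had 39994 to 105582, 42745 and 44746, 1492 to 2361, and 2032 to 3076 in the same order of groups. PEX10 reads were thus lower but present in every mutant library, and the labels do not give the deleted stretch.

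Together the members took up 5.64% to 6.65% of all counts in the treated mutant, 4.07% and 4.89% in the untreated mutant, 5.81% to 6.31% in the treated wild type and 0.435% to 0.603% in the untreated wild type. In this share the untreated mutant libraries thus lay far above the untreated wild type and below all 6 libraries with acid. The definition chose members for the first of these, and members with many reads weigh most in the sum. Gene by gene, 37 members averaged higher in the untreated mutant than in the treated wild type and 95 lower.

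**Figure D1:**
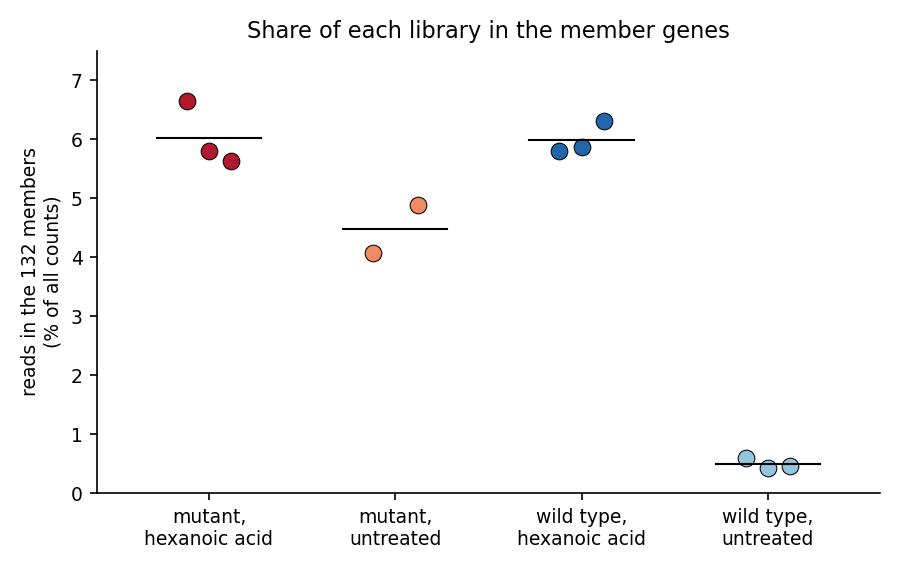
Share of all counts that fell in the 132 members (y axis, percent) in each library (points) with group means (lines), for the treated mutant, the untreated mutant, the treated wild type and the untreated wild type. The 2 untreated mutant libraries sit at 4.07% and 4.89%, between the untreated wild type (0.435% to 0.603%) and every library with acid (5.64% to 6.65%).

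Acid raised the members in the wild type by a median of 10.6-fold (5.53-fold to 198-fold, ratio of means plus 1), and the untreated mutant stood a median of 8.10-fold above the untreated wild type (5.04-fold to 130-fold). The median ratio of treated mutant to treated wild type was 1.07 (0.513 to 1.97), with 75 members above 1 and 57 below. On a log scale on which the untreated wild type is 0% and the treated wild type 100%, the untreated mutant reached a median of 92.04% (46.5% to 131%). It passed the treated wild type in 37 members and stayed under 50% of the way in 2. These values follow from the choice of genes and are not support for it.

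**Figure D2:**
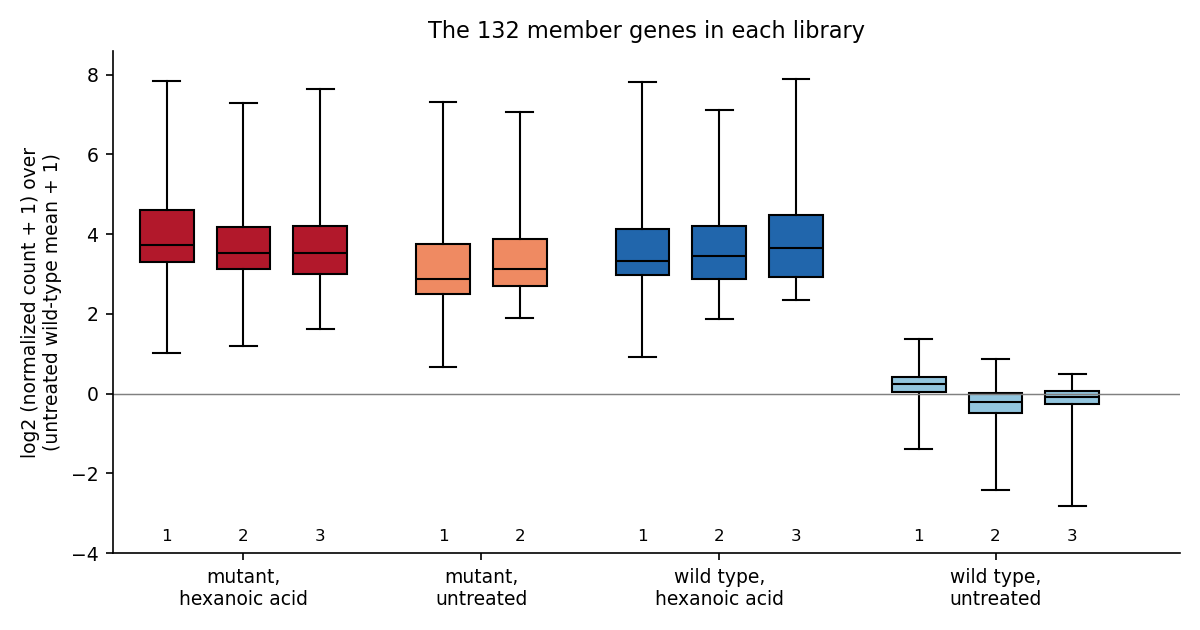
Log2 ratio of each member's normalized count, plus 1, to its untreated wild-type mean, plus 1 (y axis), in each library (boxes from the lower to the upper quartile with the median as a line and the replicate number beneath, whiskers from the lowest to the highest member). Medians are 3.73, 3.54 and 3.54 in the treated mutant, 2.88 and 3.13 in the untreated mutant, 3.32, 3.46 and 3.65 in the treated wild type, and 0.24, −0.20 and −0.07 in the untreated wild type.

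Of 348 genes that met the acid ratio and the minimum in the wild type, 194 were at least 5-fold higher in the untreated mutant, 107 were between 2-fold and 5-fold and 47 were under 2-fold. Among the 194, the treated mutant was at or under 0.5 of the treated wild type in 37 genes and at or over 2 in 21, and the remaining 136 were inside the window. Members just inside the acid ratio were YALI0_D07634g (5.53), YALI0_B16676g (5.60) and YALI0_E18788g (5.70), and genes just outside were YALI0_E22671g (4.97), YALI0_C19668g (4.74) and YALI0_F01210g (4.73). For the strain ratio, YALI0_F24783g (5.04), YALI0_B13948g (5.06) and YALI0_D07898g (5.09) were inside, and YALI0_B10516g (4.97), YALI0_A18810g (4.93) and YALI0_E34155g (4.91) outside. At the lower end of the treated ratio, YALI0_C17567g (0.513), YALI0_B13948g (0.513) and YALI0_E12463g (0.514) were inside and YALI0_B00924g (0.495), YALI0_C00231g (0.491) and YALI0_F29975g (0.490) outside. At its upper end, YALI0_E06519g (1.97), YALI0_F11759g (1.96) and YALI0_E10417g (1.904) were inside and YALI0_A00506g (2.11), YALI0_F21428g (2.15) and YALI0_C16148g (2.18) outside. The minimum of 50 was met most narrowly by YALI0_C01925g (57.6), YALI0_A00176g (90.9) and YALI0_C11209g (100.8) and missed by YALI0_A01650g (36.1), YALI0_D14674g (33.0) and YALI0_E07579g (25.2).

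The definition does not set the ratio of treated to untreated mutant directly, but the 3 ratios that it sets make it up. Whether acid raised the members further in the mutant is therefore given gene by gene, and the share called describes the list. All 132 members passed the filter on low counts, and 45 of them (34.1%) rose with hexanoic acid in the mutant (edgeR quasi-likelihood test, adjusted p under 0.05 over 6301 genes). Across all genes tested, 17.6% were called in either direction and 7.95% higher. None of the members fell in edgeR, with 3 lower at an unadjusted p under 0.05 and 1 lower with DESeq2, and 9.7% of all genes were called lower. The members' median log2 change was 0.62 (−1.25 to 2.38), with 99 above 0, against −0.01 over all genes tested. The same libraries chose the members, and the definition sets a floor on the untreated mutant. The gap between the members and all genes is therefore not support for a response of the set.

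The number of calls depended on single libraries, among the members and among all genes. Leaving out untreated mutant replicate 1 gave 14 calls in either direction (10.6% of members, against 7.04% of all genes), of which 2 were lower. Leaving out untreated replicate 2 gave 27 (20.5%, against 15% of all genes). Without treated mutant replicates 1, 2 or 3 there were 24, 22 and 26 calls (18.2%, 16.7% and 19.7%, against 14.6%, 9.68% and 10.7% of all genes). Over both directions these shares stood nearer to those of all genes than 34.1% did to 17.6%. Higher calls alone took in 9.09% to 19.7% of members in these 5 fits, against 2.53% to 5.73% of all genes. The median log2 change stayed between 0.50 and 0.69 in these 5 fits. Of the 132 members, 9 (6.82%) were called higher in every one of these fits and in every other alternative run, as were 1.9% of all genes tested.

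Those 9 members, picked out after their values were seen, had modest to large further rises. YALI0_F11605g had 2787, 3679 and 2734 normalized counts in the treated mutant, against 496 and 715 in the untreated mutant. The treated wild type had 3718, 4296 and 4444, against 155.0, 113.1 and 70.3 in the untreated wild type, so the 4 groups did not overlap. The log2 change of YALI0_F11605g with acid in the mutant was 2.35 ± 0.31 (SE, adjusted p = 0.000775, edgeR).

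YALI0_B19778g followed the same course, with 9916, 6264 and 4749 normalized counts in the treated mutant against 1970 and 1717 in the untreated mutant (log2 1.92 ± 0.33, adjusted p = 0.00312, edgeR). Its treated wild-type libraries had 5710, 9855 and 9057, against 367, 323 and 386 in the untreated wild type. The treated groups of both strains overlapped, and the untreated mutant lay apart from both of its neighbours.

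YALI0_E28548g had 250.4, 252.8 and 318 normalized counts in the treated mutant, against 83.7 and 73.2 in the untreated mutant. The treated wild type had 165.1, 171.3 and 117.1, against 4, 0 and 2.37 in the untreated wild type, the lowest level of this gene. Every treated mutant library was above every treated wild-type library, and the untreated mutant was below both, with a log2 change in the mutant of 1.81 ± 0.36 (adjusted p = 0.00626, edgeR).

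In YALI0_F18282g the treated mutant had 6086, 5084 and 7674 normalized counts, against 2735 and 1864 in the untreated mutant (log2 1.45 ± 0.26, adjusted p = 0.00386, edgeR). The treated wild type had 4408, 3745 and 4194, against 33.0, 51.2 and 46.6 in the untreated wild type. The order of groups was that of YALI0_E28548g, with the treated mutant highest.

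YALI0_E07051g had 6663, 6595 and 5372 normalized counts in the treated mutant and 2641 and 2414 in the untreated mutant (log2 1.30 ± 0.22, adjusted p = 0.00258, edgeR). Its treated wild-type libraries were higher still at 8225, 10239 and 12284, against 335, 341 and 325 in the untreated wild type. All 4 groups were apart.

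YALI0_F24783g showed little spread within groups, with 1819, 1725 and 1680 normalized counts in the treated mutant against 789 and 863 in the untreated mutant. The treated wild type had 1005, 1065 and 958, against 177.0, 153.7 and 158.9 in the untreated wild type, and no groups overlapped. Its log2 change in the mutant was 1.08 ± 0.16 (adjusted p = 0.00125, edgeR). The remaining 3 of the 9, YALI0_F13343g, YALI0_B14201g and YALI0_E15081g, changed by 1.15 ± 0.23, 1.02 ± 0.20 and 1.02 ± 0.20, each with treated mutant libraries above all of their untreated mutant and treated wild-type libraries.

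**Figure D3:**
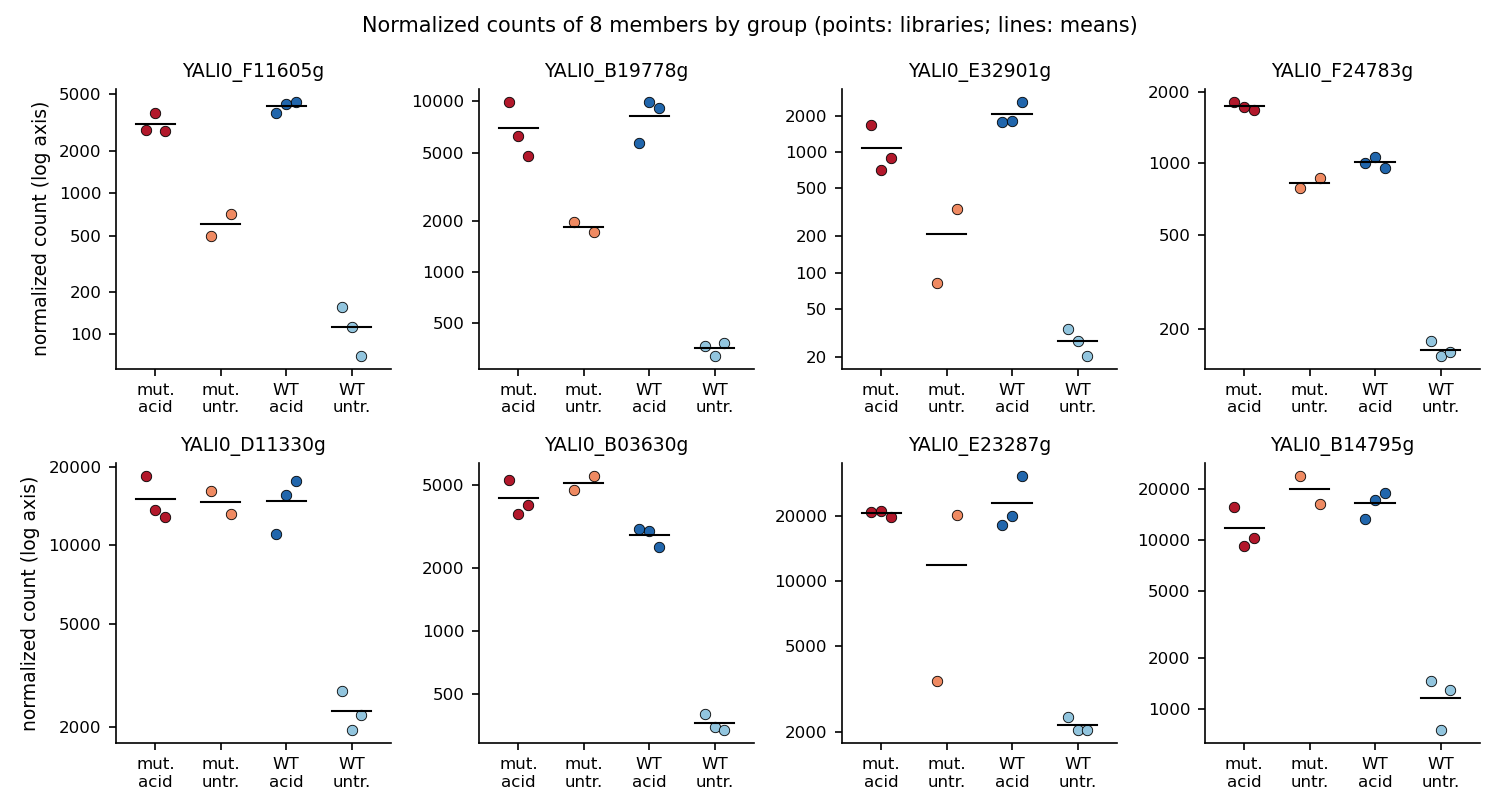
Normalized counts (y axis, log scale) of 8 members in the treated mutant, untreated mutant, treated wild type and untreated wild type (points are libraries, lines group means). In YALI0_F11605g, YALI0_B19778g and YALI0_E32901g the untreated mutant lies between the untreated wild type and the libraries with acid, in YALI0_D11330g it overlaps the treated groups, and in YALI0_B03630g it lies above the treated wild type.

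Other members with large changes moved with single libraries. YALI0_E32901g had 1662, 706 and 886 normalized counts in the treated mutant, against 82.7 and 334.6 in the untreated mutant, and 1785, 1791 and 2610 in the treated wild type against 34.0, 27.4 and 20.5 in the untreated wild type. Its log2 change in the mutant was 2.38 ± 0.53 (adjusted p = 0.0107, edgeR), and it was 1.72 without untreated mutant replicate 1 (adjusted p = 0.0591) and 3.69 without untreated mutant replicate 2 (adjusted p = 0.00126). YALI0_B21142g had 11056, 5507 and 2347 normalized counts in the treated mutant and 573 and 1931 in the untreated mutant (log2 2.34 ± 0.73, adjusted p = 0.0481, edgeR). That call was lost without untreated mutant replicate 1 (1.72) and treated replicates 1 (1.66) or 2 (2.43), and the change was 3.44 without untreated mutant replicate 2.

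Among the 10 members with the highest means in the treated wild type, 4 rose with acid in the mutant. Over all members 34.1% were called higher, and over all genes 7.95%, so this count does not set these 10 apart from the list. On the log2 scale these were YALI0_C06171g by 1.02 ± 0.32, YALI0_C05753g by 1.02 ± 0.26, YALI0_B03982g by 0.94 ± 0.23 and YALI0_F03179g by 0.90 ± 0.20 (adjusted p = 0.0495, 0.0208, 0.0171 and 0.0115, edgeR). YALI0_B03982g had 109903, 98742 and 98263 normalized counts in the treated mutant, against 50210 and 56775 in the untreated mutant, and 88289, 86364 and 100682 in the treated wild type against 8769, 5808 and 7119 in the untreated wild type. All 4 calls were lost without untreated mutant replicate 1 (1.29, 1.11, 0.87 and 0.80), YALI0_C06171g was lost without each other library of the comparison in turn (0.80 to 1.14), and YALI0_C05753g without untreated replicate 2 (0.93) or treated replicate 2 (0.97). YALI0_D09889g, YALI0_F29909g, YALI0_F08195g, YALI0_D18964g, YALI0_E23287g and YALI0_B14795g did not pass, with log2 changes of −0.05, −0.28, 0.06, 0.58, 0.82 and −0.78. Without untreated mutant replicate 2, YALI0_E23287g was called at 2.57 (adjusted p = 0.000767, edgeR).

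The 87 members not called in the mutant had log2 changes from −1.25 to 1.48, 54 of them above 0 and 33 below, with a median standard error of 0.295. YALI0_D11330g was among the flattest, with 18506, 13662 and 12901 normalized counts in the treated mutant and 16208 and 13271 in the untreated mutant, beside 11091, 15649 and 17666 in the treated wild type and 2750, 1950 and 2222 in the untreated wild type. The log2 change was 0.03 ± 0.27, and the untreated mutant overlapped both treated groups. At the other end, YALI0_B14795g had 15655, 9188 and 10261 in the treated mutant against 23849 and 16316 in the untreated mutant, which did not overlap (log2 −0.78 ± 0.33, adjusted p = 0.130, edgeR). YALI0_F04169g, the member that DESeq2 called lower (log2 −0.79 ± 0.31, adjusted p = 0.0469, DESeq2), had 12594, 10381 and 9977 in the treated mutant and 13013 and 25020 in the untreated mutant, which stood apart only narrowly.

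The second question is how close the untreated mutant came to the treated wild type. Here 31 of 132 members (23.5%) were lower in the untreated mutant and 1 was higher (edgeR, adjusted p under 0.05), which is 24.2% in either direction, against 8.24% of all genes lower, 11.6% higher and 19.8% in either direction. The members' median log2 difference was −0.26 (−3.30 to 0.84), with 39 above 0, against 0.01 over all genes tested. This comparison shares the untreated mutant libraries with the one before, so a member's values in both are not separate evidence. The strain ratio over the acid ratio gives the ratio of untreated mutant to treated wild type, and the definition sets a floor on each. Libraries on both sides of this comparison thus chose the members, and the shares called describe the list. The gap between the members and all genes is therefore not support for a lower level of the set. For the 100 members not called, differences ran from −1.32 to 0.82 with a median standard error of 0.285, and missing the threshold does not show that their levels were alike.

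With library totals in place of the TMM scaling factors, which set libraries level on the bulk of genes, the median of all genes moved from 0.01 to 0.17 and that of the members from −0.26 to −0.11, so the members stayed lower relative to all genes, and 23 were called (17.4%, against 20.1% of all genes). Of these, 22 members (16.7%) were lower, with 5.97% of all genes lower and 14.1% higher under that scaling. With TMM scaling, the count was 32, 21 and 18 without treated wild-type replicates 1, 2 and 3 in turn. These are 24.2%, 15.9% and 13.6% of members, against 17%, 13.3% and 13.1% of all genes called in the same fits. Lower calls alone took in 23.5%, 15.2% and 13.6% of members there, against 7.74%, 5.84% and 5.18% of all genes. Without untreated mutant replicate 1 or 2, which leaves 1 library in that group, the members' median difference was −0.31 and −0.29. In every fit run, 14 members (10.6%) were called lower, as were 3.43% of all genes tested. Shares of members beside shares of all genes describe the list in these fits too.

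**Figure D4:**
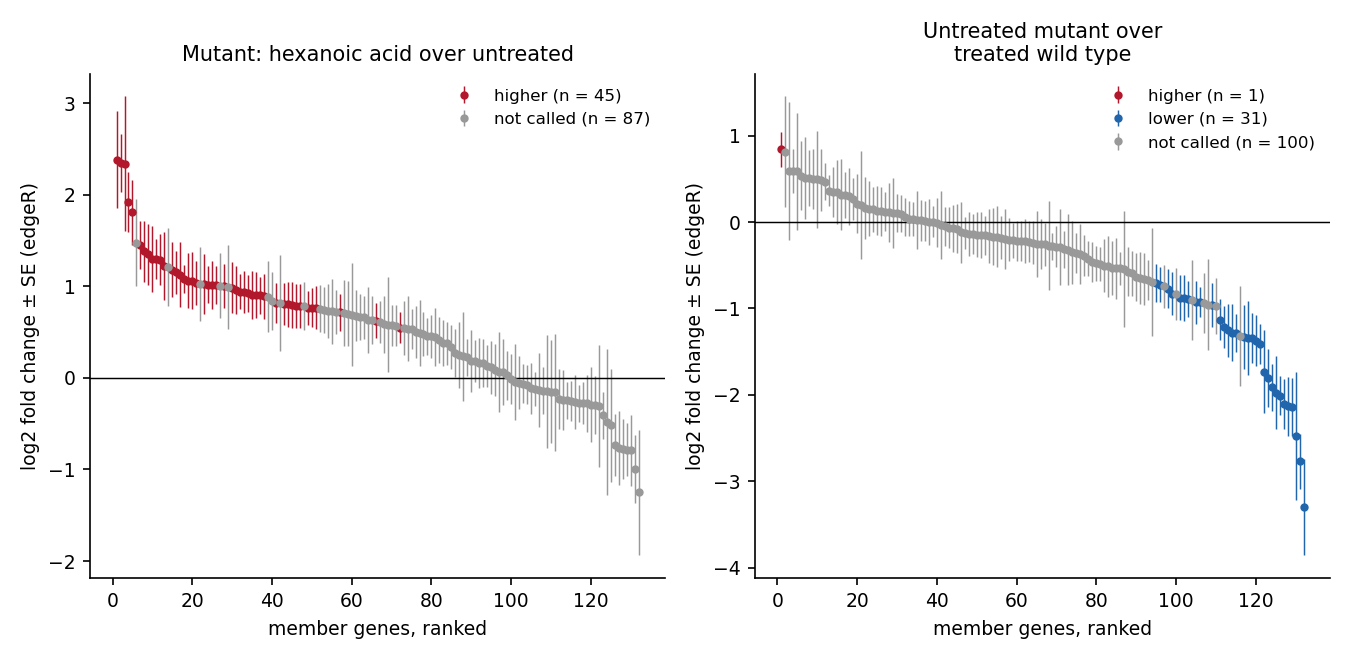
Log2 fold change ± SE (y axes, edgeR) of the 132 members, ranked from highest to lowest (x axes), for treated over untreated mutant (left) and untreated mutant over treated wild type (right); colours give the calls at an adjusted p under 0.05. On the left 45 members are called higher and 87 are not called, and on the right 1 is called higher, 31 lower and 100 are not called.

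YALI0_E32901g, YALI0_F11605g and YALI0_B19778g, whose counts are given above, differed from the treated wild type by −3.30 ± 0.55, −2.77 ± 0.32 and −2.14 ± 0.33 in the untreated mutant (adjusted p = 0.00182, 0.000215 and 0.00128, edgeR). The difference of YALI0_E32901g was −2.63 without untreated mutant replicate 1 and −4.61 without untreated mutant replicate 2, and it was called in both. YALI0_B21142g differed by −2.48 ± 0.74 (adjusted p = 0.0355, edgeR), a call lost without untreated mutant replicate 1 (−1.86) and treated wild-type replicates 2 (−2.46) or 3 (−2.11), and it was −3.58 without untreated mutant replicate 2. YALI0_E09581g had 45.4 and 78.4 normalized counts in the untreated mutant, against 312.9, 192.3 and 315.4 in the treated wild type (−2.14 ± 0.34, adjusted p = 0.00136, edgeR). With acid its mutant libraries had 126.3, 208.0 and 148.4, and the untreated wild type had 11, 9.72 and 7.90.

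The 10 members with the highest treated wild-type means were ranked on 1 side of this comparison, which favours members lower in the untreated mutant. Among them, YALI0_D18964g had 19770 and 20766 normalized counts in the untreated mutant against 45285, 56477 and 61100 in the treated wild type (−1.41 ± 0.23, adjusted p = 0.00161, edgeR). Its treated mutant libraries had 33091, 29046 and 28311. YALI0_C05753g had 8951 and 8124 in the untreated mutant against 26824, 32647 and 37816 in the treated wild type (−1.91 ± 0.27, adjusted p = 0.000717, edgeR). The remaining calls among these 10 members were lower too. They were −1.28 ± 0.33 for YALI0_C06171g, −0.77 ± 0.23 for YALI0_B03982g and −0.72 ± 0.20 for YALI0_F03179g (adjusted p = 0.0179, 0.0352 and 0.0269, edgeR). They were lost in 3, 5 and 3 of the 5 fits that left out 1 library (−1.20 to −1.06, −0.84 to −0.70 and −0.74 to −0.62), whereas YALI0_D18964g and YALI0_C05753g were called in all 5. Leaving out a library also added calls. YALI0_E23287g, at −0.96 and not called with all libraries, was called lower without untreated mutant replicate 2 (−2.71, adjusted p = 0.000477, edgeR), and YALI0_D09889g, at −0.83, without treated wild-type replicate 1 (−1.01, adjusted p = 0.0391, edgeR). In YALI0_D18964g and YALI0_C05753g the untreated mutant, the treated mutant and the treated wild type formed 3 separate levels in ascending order.

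The member that was higher in the untreated mutant was YALI0_B03630g, with 4746 and 5523 normalized counts against 3090, 3023 and 2510 in the treated wild type (log2 0.84 ± 0.20, adjusted p = 0.0126, edgeR). Its treated mutant libraries had 5291, 3646 and 4012, and the untreated wild type 399, 346 and 334. The call was lost without untreated mutant replicate 2 (0.75, adjusted p = 0.0629) and without treated wild-type replicate 3 (0.75, adjusted p = 0.0535).

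The 2 untreated mutant libraries agreed in their centre but not gene by gene. The median log2 ratio of replicate 2 to replicate 1 was 0.01 over the members and 0.02 over 6211 genes with a mean of at least 10. Of the 132 members 14 (10.6%) differed at least 2-fold between them, and all 14 were higher in replicate 2. Over all genes 9.95% differed at least 2-fold, with 226 higher in replicate 2 and 392 higher in replicate 1. The strain ratio used these libraries, so the lean of the members is a description.

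Some of these differences were large. YALI0_D00132g had 84.7 and 565.4 normalized counts in the 2 libraries, YALI0_E23287g 3423 and 20113, YALI0_D06754g 912 and 5350 and YALI0_F01584g 217 and 1100. In these 4 genes the first library lay above the untreated wild type and below every library with acid, and the second lay within or above the libraries with acid. YALI0_E23287g, for instance, had 20665, 21067 and 19710 in the treated mutant, 18012, 19947 and 30495 in the treated wild type and 2351, 2036 and 2039 in the untreated wild type. Taken alone, replicate 1 was at least 5-fold above the untreated wild-type mean in 106 members, replicate 2 in 125, and both in 99.

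**Figure D5:**
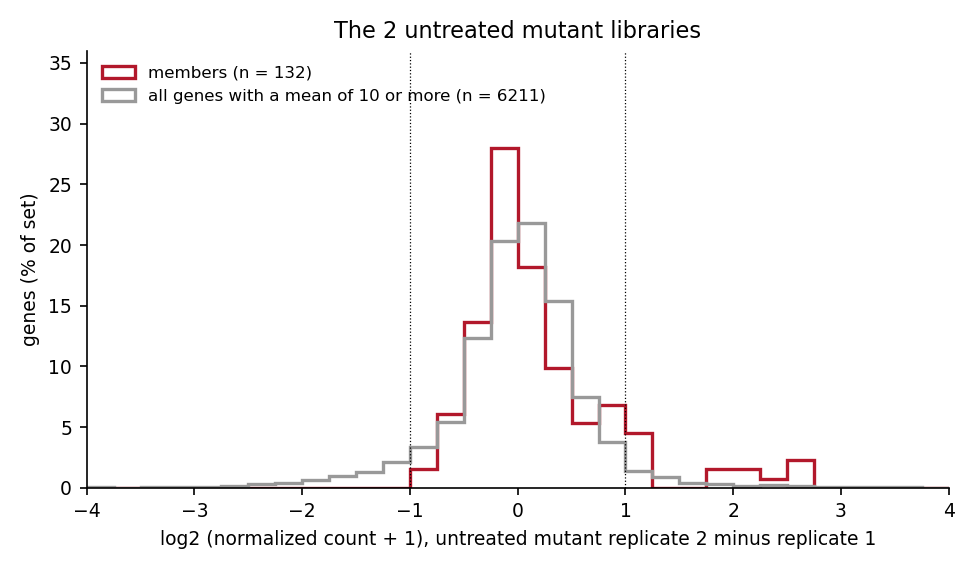
Distribution of the log2 ratio of untreated mutant replicate 2 to replicate 1 (x axis, normalized counts plus 1, shown from −4 to 4) over the 132 members and over 6211 genes (y axis, percent of each set); dotted lines mark 2-fold. The members have no gene beyond 2-fold on the left and 14 on the right, whereas all genes extend to both sides.

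The other groups also held libraries in which the members leaned together. Untreated wild-type replicate 1 exceeded the mean of the other replicates in 112 of 132 members (84.9%), with a median log2 excess of 0.40, and in 47.2% of all genes. Treated mutant replicate 1 did so in 104 members (78.8%, median 0.27) and in 51.2% of all genes, and treated wild-type replicate 3 in 95 members (72.0%, median 0.21) and in 53.5% of all genes. These shifts are small beside the differences between the untreated wild type and the other groups, for which the definition chose the members. The 0.21 of treated wild-type replicate 3 is near in size to the members' median difference of −0.26 between untreated mutant and treated wild type. The 0.27 of treated mutant replicate 1 stands beside a median change of 0.62 with acid in the mutant. Leaving out these libraries in turn gave medians of −0.27 and 0.50. The median coefficient of variation of the members was 17.6% in the treated mutant, 14.3% in the untreated mutant, 19.5% in the treated wild type and 22.7% in the untreated wild type, and that of all genes was 13.8%, 14.9%, 16.1% and 19.2%.

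YALI0_F05016g, chosen after its values were seen, shows how such a library enters a ratio. It had 3700, 2533 and 3195 normalized counts in the treated mutant, 2565 and 1628 in the untreated mutant, 2877, 2219 and 2573 in the treated wild type, and 37.0, 3.53 and 4.74 in the untreated wild type. Its strain ratio of 130 was the largest among the members. Most of its untreated wild-type mean came from replicate 1, so that library made the ratio smaller than the other 2 replicates alone would.

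Membership itself moved with single libraries. Between 109 and 148 genes met the definition when 1 library was left out, and 79 of the 132 members (59.9%) met it in all 11 such runs. Leaving out untreated mutant replicate 2 lost 26 members, the most of any library, and leaving out untreated wild-type replicate 1 lost none and added 16 genes.

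Apart from their levels, the tags spread over all 6 letters that the tags carry for the chromosomes. Members made up 1.18% of tags with the letter A, 1.67% with B, 1.82% with C, 2.04% with D, 2.17% with E and 1.98% with F, against 1.87% of all 7074 such tags. Only 1 pair of members was next to each other in tag order, YALI0_D11308g and YALI0_D11330g. YALI0_D11308g had 1153, 825 and 779 normalized counts in the treated mutant, 840 and 1103 in the untreated mutant, 1378, 1680 and 1721 in the treated wild type and 80.0, 62.7 and 68.0 in the untreated wild type. The untreated mutant was lower than the treated wild type for YALI0_D11308g (log2 −0.71 ± 0.22, adjusted p = 0.0406, edgeR), a call lost in 4 of 5 fits that left out 1 library (−0.90 to −0.54), and the difference was 0.01 ± 0.27 for YALI0_D11330g. Without a strand setting, reads of overlapping neighbours cannot be separated.

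Over the 11 libraries, the standardised log2 profile of a member correlated with the mean profile of the other members at a median Pearson r of 0.975 (0.761 to 0.995), and 126 of 132 were at 0.9 or above. The lowest was YALI0_C11209g, with 24.6, 70.2 and 93.3 normalized counts in the treated mutant, 165.3 and 135.9 in the untreated mutant, 145.7, 45.1 and 108.7 in the treated wild type and 12, 22.1 and 0.790 in the untreated wild type. All points share the same 11 libraries and the members were chosen for this pattern, so these values describe the set. The genes outside the definition most like the mean profile were YALI0_B10516g (r = 0.993), YALI0_C02937g (0.993) and YALI0_D20856g (0.992), and the left-out tag YALI0_D16753g had an r of 0.996. YALI0_B10516g averaged 5279 normalized counts in the treated mutant, 3299 in the untreated mutant, 4658 in the treated wild type and 663 in the untreated wild type, and missed the strain ratio at 4.97. YALI0_C02937g and YALI0_D20856g had the same shape at smaller ratios, with acid ratios of 3.61 and 4.93 and strain ratios of 3.28 and 4.15.

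For contrast, 27 genes met the other conditions but were under 2-fold higher in the untreated mutant. Their median log2 change with acid in the mutant was 2.32 (1.33 to 4.76), against 0.62 for the 132 members. That gap follows from how both sets were chosen and was not tested.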

How the data were processed

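RNA from 11 yeast cultures went through a directional kit, per the labels' protocols. Tools in the submitters' processing notes are STAR 2.7.9a for alignment, HTSeq 0.11.0, SAMtools 1.9, DESeq2 1.32.0 and FastQC 0.11.7. No build, annotation or strand setting is named in them. The authors deposited whole-read counts for 7135 genes. Their second deposited table is a signal, the counts over a single size factor for each library, which was tested on the values.

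The definition used the normalized values and the tests used the counts. In R 4.3.3, edgeR 4.0.16 with limma 3.58.1 scaled libraries by TMM, kept 6301 genes with filterByExpr, and fitted 1 mean per group over all 11 libraries (robust quasi-likelihood F test, Benjamini-Hochberg adjustment over all genes kept). The common biological coefficient of variation was 23.8%. Standard errors were obtained from the log2 fold change and the F statistic. DESeq2 1.42.0 was an alternative, and the fit was tested on simulated data. Cultures came from separate colonies, per the labels, and no replicate libraries agreed within sampling noise (smallest chi-square per degree of freedom 39.5), so p-values measure the spread between cultures.

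Members and lists were chosen with earlier results of these data known. Named members were the 10 with the highest mean normalized count in the treated wild type and the 5 highest and 5 lowest called values of each test. Those nearest each threshold, neighbours in tag order and the most similar genes outside were named too. Lists by function and promoter motifs were not built, since the reference used here describes no tag. Without gene lengths, levels are not compared between genes.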

Additional observations from a re-analysis of the deposited data

How the results depend on the processing

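The median log2 change of the members with acid in the mutant (0.50 to 0.69) kept its sign in every alternative run. So did their median difference between untreated mutant and treated wild type (−0.31 to −0.27 without 1 library, −0.11 at the least). Each stayed within 0.222 of its value in the main fit. That figure is the pooled standard deviation between replicates of a library's median member level, not the spread of a change or difference. The main difference of −0.26 is of like size. Members called in the mutant numbered 14 to 27 without 1 library (12 to 26 higher and 0 to 2 lower), 26 with only the groups compared (all 26 higher) and 45 with all libraries; DESeq2 called 57, 1 of them lower. Replicate numbers gave no clear sign of pairing: 2 of 15 same-numbered pairs had deviations correlated above 0.1, by title or by description number. Deviations cancel within each group of 2 or 3 libraries, so these correlations cannot show that there was no pairing. Same-numbered pairs ran from −0.423 to 0.345. Libraries with different numbers were also correlated, up to 0.459 for treated mutant replicate 1 with treated wild-type replicate 3. What such libraries share was not tested. With the replicate block by title, 27 members were called, all higher (20.5%, against 11.7% of all genes). By description number there were 21, all higher (15.9%, against 11.9% of all genes). For untreated mutant against treated wild type, 18 to 32 members were called without 1 library (16 to 31 lower and 0 to 2 higher), and 25 with the block by description number, 2 of them higher. Over all genes, 1112 were called with acid in the mutant, against 659 with only the groups compared, 739 with the block by title and 447, 609 and 674 without untreated mutant replicate 1 and treated replicates 2 and 3. For untreated mutant against treated wild type the 1250 became 746 without untreated mutant replicate 1 and 827 without treated wild-type replicate 3. The definition gave 109 to 148 genes without 1 library, 55 at a fold threshold of 8 and 68 with a window of 0.67 to 1.5. With 2 untreated mutant libraries, leaving 1 out assumes that the other varies like the remaining groups.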
